A study of Mus musculus with 7 samples.

Results

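The Hedgehog members described here are 9 genes, taken by name: the ligands Shh, Ihh and Dhh, the receptor Ptch1, the decoy receptor Hhip, the signal transducer Smo and the transcription factors Gli1, Gli2 and Gli3. Each had 1 probe set that the platform annotation pairs with that gene alone, so 9 of 19938 genes on the array were described. The samples were sorted cells of the whole bowel of mouse embryos at embryonic day 17.5. Every sample came from embryos with Wnt1-Cre, a recombinase driven by a neural crest promoter, and the reporter allele R26R-EYFP, which makes a yellow fluorescent protein once Cre has acted. Sorting gave 4 YFP-positive samples of enteric neural crest-derived cells (ENCDC), which form the neurons and glia of the bowel wall, and 3 YFP-negative samples of non-ENCDC, which hold the other bowel cells together. The study looked for genes that stand out in ENCDC, and no further treatment or genotype is given. Nothing in the labels ties the samples to different embryos or litters, so the p-values reflect sample-to-sample spread that may be technical.

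Hedgehog ligands are secreted proteins that bind Ptch1. Binding lifts the hold of Ptch1 on Smo, and Smo, acting in the primary cilium, then turns the Gli factors towards activation of their targets, among which are Gli1, Ptch1 and Hhip themselves. In the developing mouse gut Shh and Ihh are made by the epithelium and the surrounding mesenchyme responds, while Dhh is best known as a ligand of Schwann cells in peripheral nerves.

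None of the 9 members was higher in ENCDC, and the 4 that differed were lower: Ptch1, Hhip, Gli1 and Gli3, by 1.56-fold to 1.81-fold. Counted by limma with p-values adjusted over all 19938 genes, 0 members were higher and 4 lower at an adjusted p under 0.05, against 8.39% of all genes called higher and 9.11% called lower. At an unadjusted p under 0.05, 0 were higher and 5 lower, the fifth being Gli2. The median log2 fold change was -0.42 over the 9 members and 0.01 over all genes. The 4 called members were also the ones whose YFP-positive arrays all lay below their YFP-negative arrays, a pattern that 13.5% of all genes had. The count of 4 fell to 0 without YFP-negative array 2, with 4 members still at an unadjusted p under 0.05, and to 2 without YFP-positive array 1, YFP-positive array 2 or YFP-negative array 1. Fold changes are differences of mean log2 levels, YFP-positive minus YFP-negative, with the standard error of the fit.

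**Figure D1:**
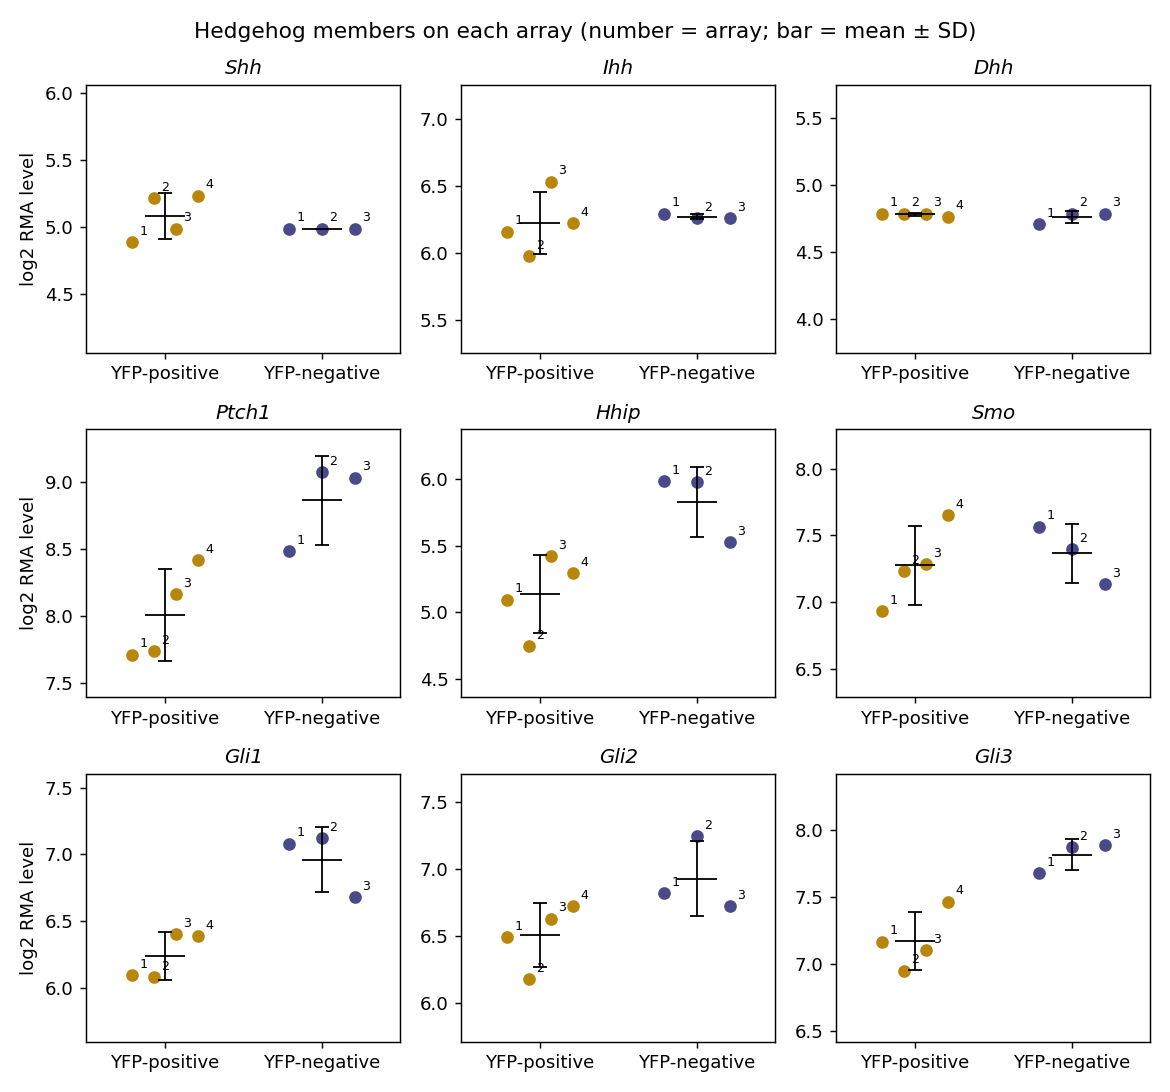
Log2 RMA level of each Hedgehog member on each array, with YFP-positive arrays left of YFP-negative arrays, every panel spanning the same range on the log2 scale; numbers are array numbers and bars the mean ± SD. The YFP-positive arrays lie below the YFP-negative arrays for Ptch1, Hhip, Gli1 and Gli3, and the groups overlap or touch for the other members.

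Promoter windows of called members are shown because those genes were lower together and 3 of the 4 are textbook Gli targets. RefSeq (GRCm38.p6) gave a window of 250 bases before to 50 after the gene start for 7 of the 9 members. Shh and Gli1 had no window, so the promoter of Gli1, a called member and Gli target, was not searched. The windows of Ptch1, Hhip and Gli3 follow, 5′ to 3′ on the strand of the gene, with capitals marking the GC box GGGCGG or its reverse complement.
Ptch1, chr13:63565686-63565985, minus strand: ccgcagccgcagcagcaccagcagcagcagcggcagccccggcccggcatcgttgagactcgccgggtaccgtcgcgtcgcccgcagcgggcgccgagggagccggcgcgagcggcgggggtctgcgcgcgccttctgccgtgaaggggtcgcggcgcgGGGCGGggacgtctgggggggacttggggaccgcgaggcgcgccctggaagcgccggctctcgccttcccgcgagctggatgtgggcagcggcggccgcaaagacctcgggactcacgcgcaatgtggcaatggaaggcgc
Hhip, chr8:80057959-80058258, minus strand: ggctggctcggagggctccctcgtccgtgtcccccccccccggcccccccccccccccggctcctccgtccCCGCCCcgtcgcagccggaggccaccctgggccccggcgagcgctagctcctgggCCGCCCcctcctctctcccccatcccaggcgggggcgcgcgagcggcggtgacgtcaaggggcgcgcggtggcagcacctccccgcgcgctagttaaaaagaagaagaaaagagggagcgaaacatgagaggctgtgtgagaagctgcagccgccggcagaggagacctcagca
Gli3, chr13:15463473-15463772, plus strand: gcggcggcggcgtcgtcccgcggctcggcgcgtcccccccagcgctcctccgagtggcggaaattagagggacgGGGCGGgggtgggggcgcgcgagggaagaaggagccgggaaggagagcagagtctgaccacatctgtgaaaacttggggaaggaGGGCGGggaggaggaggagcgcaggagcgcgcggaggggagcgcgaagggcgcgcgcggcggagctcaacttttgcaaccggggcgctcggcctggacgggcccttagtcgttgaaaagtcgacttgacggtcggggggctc
The Gli consensus GACCACCCA, searched on both strands, was in 0 of the 7 windows and in 0.253% of all 32851 windows. Its core CCACCCA, which lies inside the consensus, was in 0 of the 7 and in 9.3% of all windows. The GC box was in 6 of the 7 windows (Smo had none) and in 35.7% of all windows. The printed windows had a GC content of 76.3% for Ptch1, 73.7% for Hhip and 71.0% for Gli3, against a median of 52.7% over all windows. These matches describe letters within 300 bases only.

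No difference between the sorted populations was detected for the ligand genes. Shh, the ligand of the gut epithelium and of many other organs, had log2 levels of 4.89, 5.22, 4.99 and 5.23 on YFP-positive arrays 1 to 4, against 4.99 on each of the 3 YFP-negative arrays. The value was the same to 6 decimals on YFP-positive array 3 and all 3 YFP-negative arrays, and the YFP-positive arrays lay on both sides of it. Its log2 fold change was 0.09 ± 0.10 (SE, limma adjusted p = 0.577). Such repeats were common in the deposited values, with 32.7% of genes holding 1 value on 3 or more arrays, so an SD of 0 within a group does not show that its samples held the same amount of RNA.

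Ihh, the other epithelial ligand, had log2 levels of 6.16, 5.98, 6.53 and 6.22 on YFP-positive arrays 1 to 4, against 6.29, 6.26 and 6.26 on YFP-negative arrays 1 to 3. The YFP-positive arrays spread on both sides of the narrow YFP-negative range, with array 3 the highest of the 7 and array 2 the lowest. Its log2 fold change was -0.05 ± 0.12 (SE, limma adjusted p = 0.847). No epithelial marker passed either. Of 13 measured, 0 were higher and 0 lower in ENCDC by limma (0 higher and 1 lower at an unadjusted p under 0.05), against 8.39% of all genes called higher and 9.11% called lower. The mean log2 level of the 13 ranged from 7.29 to 8.35 on the YFP-positive and from 7.89 to 7.96 on the YFP-negative arrays. On YFP-positive arrays 3 and 4 the epithelial mean, 8.15 and 8.35, was above that of every YFP-negative array. Epcam, an adhesion protein of epithelial cells, had a log2 fold change of 0.15 ± 0.23 (SE, limma adjusted p = 0.717). The part of epithelial RNA in the values of Shh and Ihh was not tested.

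Dhh hardly varied from array to array. Its log2 level was 4.79 on YFP-positive arrays 1 to 3 and 4.76 on array 4, against 4.71 on YFP-negative array 1 and 4.79 on arrays 2 and 3. The value was identical to 6 decimals on 5 of the 7 arrays. Its log2 fold change was 0.02 ± 0.05 (SE, limma adjusted p = 0.833). The ENCDC did carry the markers of enteric glia and the Schwann lineage, with a mean log2 level of 7.71 to 8.11 on the YFP-positive and of 5.48 to 5.76 on the YFP-negative arrays. Against 8.39% of all genes called higher and 9.11% called lower, 7 of 9 measured were higher in YFP-positive cells and 0 lower (7 higher and 0 lower at an unadjusted p under 0.05). The early glial genes Sox10 (2.52 ± 0.15) and Erbb3 (2.61 ± 0.13) were among them (log2 fold change ± SE). So was the myelin gene Mbp, at 0.77 ± 0.18 (SE, limma adjusted p = 0.0239). Egr2, a regulator of myelinating Schwann cells, did not pass, at 0.06 ± 0.10 (SE, limma adjusted p = 0.747). Gfra3 did not pass either, at 0.34 ± 0.21 (SE, limma adjusted p = 0.333). Shh and Dhh were the 2 members that a filter on low mean levels removed, and the values carry no detection call, so their levels cannot be told from background.

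Ptch1, the ligand receptor and a direct target of the pathway, had the largest difference of the members. Its log2 levels were 7.71, 7.74, 8.16 and 8.42 on YFP-positive arrays 1 to 4, against 8.48, 9.08 and 9.03 on YFP-negative arrays 1 to 3. The groups did not overlap, but YFP-positive array 4 and YFP-negative array 1 were nearly level. The mean was 8.01 ± 0.34 (SD, n = 4) in YFP-positive cells and 8.86 ± 0.33 (SD, n = 3) in YFP-negative cells, a log2 fold change of -0.86 ± 0.22 (SE, limma adjusted p = 0.0399), or 1.81-fold lower in ENCDC. The call was lost when YFP-positive array 1, 2 or 3 was left out, or when YFP-negative array 2 or 3 was, with adjusted p-values of up to 0.145 and log2 fold changes of -0.75 to -1.05 over the 7 fits that leave out 1 array. In sorted bulk samples, fewer Ptch1-expressing cells and less Ptch1 RNA per cell cannot be told apart, and the same holds for every gene below.

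Hhip, a membrane protein that binds Hedgehog ligands and holds them from Ptch1, had log2 levels of 5.10, 4.75, 5.42 and 5.29 on YFP-positive arrays 1 to 4, against 5.98, 5.97 and 5.52 on YFP-negative arrays 1 to 3. The groups did not overlap, and YFP-negative array 3 lay closer to the YFP-positive arrays than to the others of its group. The mean was 5.14 ± 0.29 (SD, n = 4) in YFP-positive cells and 5.83 ± 0.26 (SD, n = 3) in YFP-negative cells, a log2 fold change of -0.69 ± 0.19 (SE, limma adjusted p = 0.0466). Hhip was the member nearest to the threshold among those called. Its call was lost without any single array other than YFP-positive array 3 and YFP-negative array 3, with adjusted p-values of up to 0.159.

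Smo, which carries the signal from Ptch1 into the cell, did not pass. Its log2 levels were 6.93, 7.23, 7.29 and 7.65 on YFP-positive arrays 1 to 4, against 7.57, 7.40 and 7.13 on YFP-negative arrays 1 to 3. The ranges overlapped throughout, and the highest and the lowest value both came from YFP-positive arrays. The log2 fold change was -0.09 ± 0.18 (SE, limma adjusted p = 0.788). Whether the difference of Smo departs from that of Ptch1 was not tested.

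Gli1, the Gli factor whose own transcription reports pathway activity, had log2 levels of 6.10, 6.08, 6.40 and 6.39 on YFP-positive arrays 1 to 4, against 7.08, 7.12 and 6.68 on YFP-negative arrays 1 to 3. The groups were separate, and YFP-negative array 3 was again the lowest of its group. The mean was 6.24 ± 0.18 (SD, n = 4) in YFP-positive cells and 6.96 ± 0.24 (SD, n = 3) in YFP-negative cells, a log2 fold change of -0.72 ± 0.14 (SE, limma adjusted p = 0.0133), or 1.64-fold lower. The call was lost when YFP-negative array 1 (adjusted p = 0.056) or 2 (adjusted p = 0.0601) was left out.

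Gli3, which acts mainly as a repressor when the pathway is silent, had log2 levels of 7.17, 6.95, 7.10 and 7.46 on YFP-positive arrays 1 to 4, against 7.68, 7.87 and 7.89 on YFP-negative arrays 1 to 3. The groups did not overlap. The mean was 7.17 ± 0.22 (SD, n = 4) in YFP-positive cells and 7.81 ± 0.12 (SD, n = 3) in YFP-negative cells, a log2 fold change of -0.64 ± 0.13 (SE, limma adjusted p = 0.0134). This call was lost in 1 of the 7 fits that leave out an array, that without YFP-negative array 2 (adjusted p = 0.0607).

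Gli2, the main activator among the Gli factors, had log2 levels of 6.49, 6.18, 6.63 and 6.72 on YFP-positive arrays 1 to 4, against 6.82, 7.25 and 6.72 on YFP-negative arrays 1 to 3. YFP-positive array 4 and YFP-negative array 3 held the same value to 6 decimals, so the groups met. The log2 fold change was -0.42 ± 0.17 (SE) and did not pass (limma adjusted p = 0.147). That Gli1 and Gli3 passed and Gli2 did not is no test of a difference among the Gli factors, which was not tested.

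**Figure D2:**
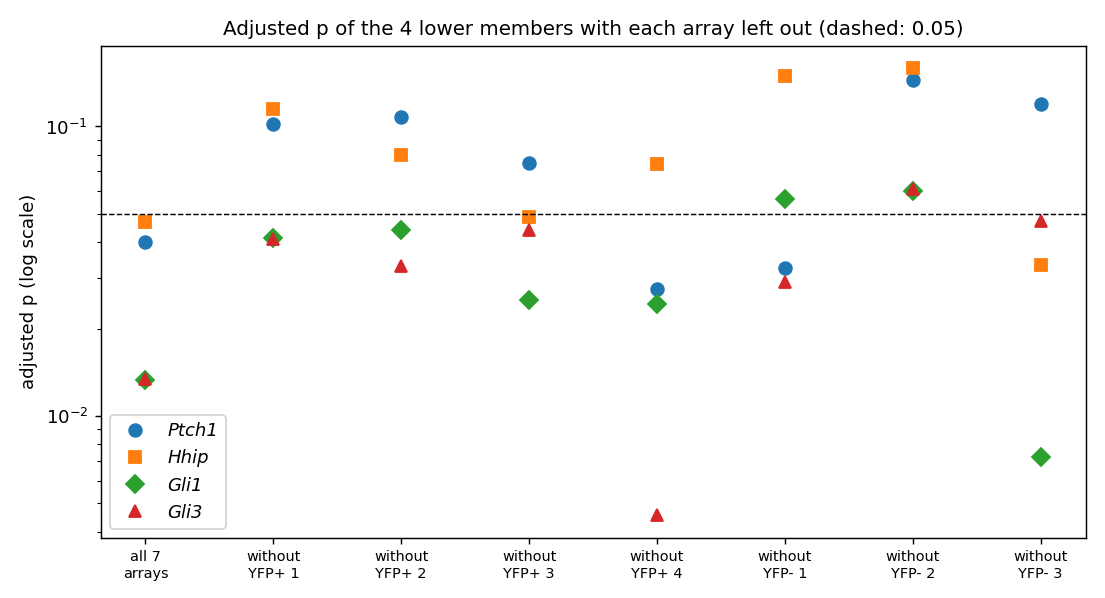
Limma adjusted p (log axis) of Ptch1, Hhip, Gli1 and Gli3 with all 7 arrays and with each array left out in turn, with the threshold of 0.05 dashed. Gli3 stays below the line except without YFP-negative array 2, where none of the 4 genes passed.

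The lower members varied from array to array within each population, and so did cell type markers. The mean log2 level of 8 fibroblast and mesenchyme markers, of which 7 were lower and 0 higher in ENCDC (8 lower and 0 higher at an unadjusted p under 0.05), was 7.59, 7.83, 8.35 and 8.58 on YFP-positive arrays 1 to 4, against 10.06, 10.11 and 9.41 on YFP-negative arrays 1 to 3. Ptch1, Gli1 and Hhip had their higher YFP-positive values on arrays 3 and 4, where this mean was also higher. That rise was not particular to fibroblasts. The means of epithelial, interstitial cell of Cajal, endothelial and mesothelial markers were higher on those arrays too. The mean of 5 immune cell markers, 5 lower and 0 higher in ENCDC, was 5.22, 5.79, 6.48 and 6.65 on YFP-positive arrays 1 to 4, with a median log2 fold change of -4.15. Gli1 and Hhip had their lowest YFP-negative value on array 3, where the fibroblast and mesenchyme mean was lowest. Ptch1 and Gli3 had their lowest YFP-negative value on array 1 instead, and Gli3 was lower on YFP-positive array 3 than on array 1. The 7 smooth muscle markers, 3 of them lower and 0 higher (7 lower and 0 higher at an unadjusted p under 0.05), had means of 7.84 to 9.56 on the YFP-positive and 9.76 to 10.31 on the YFP-negative arrays. Of all genes, 9.11% were called lower and 8.39% higher. The part of any of these cell types in the differences of the members was not tested. With YFP-positive arrays 3 and 4 left out together, Ptch1 stood at -1.14 ± 0.21 (adjusted p = 0.0344), Gli1 at -0.87 ± 0.16 (adjusted p = 0.0331), Gli3 at -0.76 ± 0.11 (adjusted p = 0.0184) and Hhip at -0.90 ± 0.20 (log2 fold change ± SE, limma adjusted p = 0.0547). Since these arrays had the highest non-neural marker levels of their group, leaving them out lowers such genes in ENCDC by the choice itself.

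**Figure D3:**
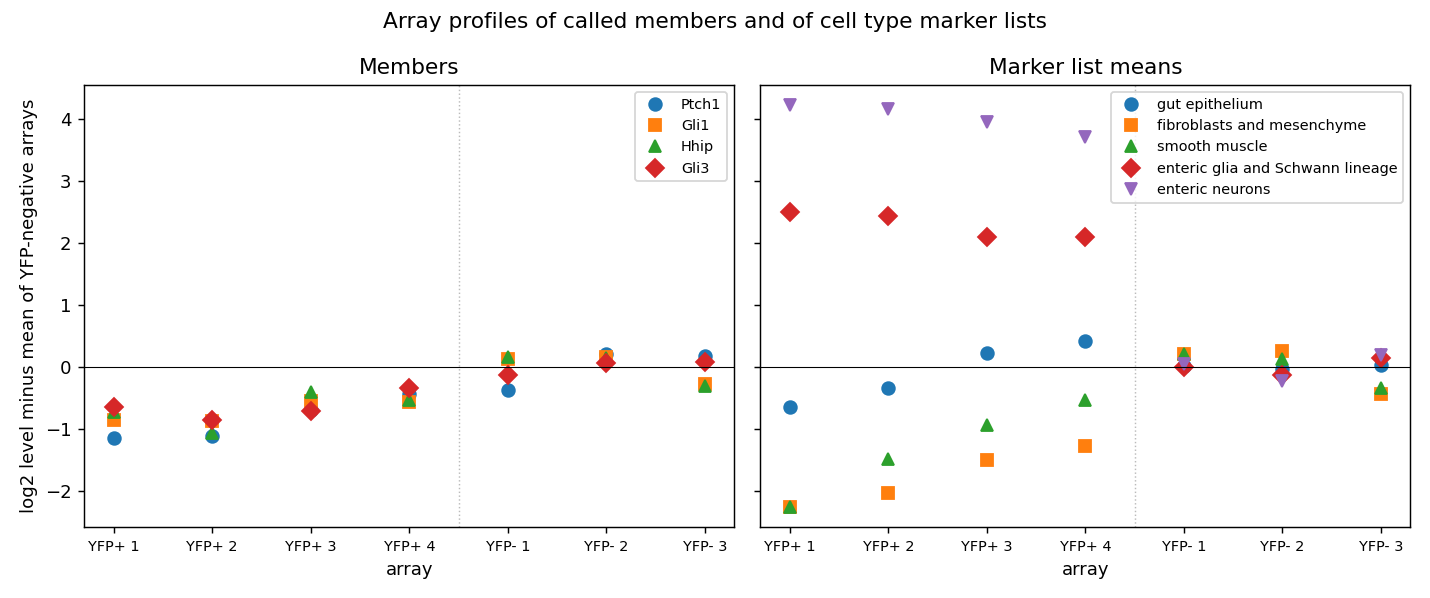
Log2 level on each array minus the mean of the YFP-negative arrays, for the 4 called members (left) and for the means of 5 marker lists (right), with YFP-positive arrays left of YFP-negative arrays. The 4 members lie below 0 on every YFP-positive array, the fibroblast mean lies further below on each of them, and the neuronal and glial means lie above.

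The differences of the called members were smaller than those of most fibroblast and mesenchyme markers on the same arrays. Over the 8 fibroblast and mesenchyme markers the median log2 fold change was -1.83, and that of Pdgfra, a growth factor receptor of gut mesenchyme, was -2.18 ± 0.36 (SE, limma adjusted p = 0.00668), while the called members ranged from -0.86 for Ptch1 to -0.64 for Gli3. Fbln1, of the same marker list, had a smaller difference than any called member, -0.41 ± 0.13 (SE), and did not pass (limma adjusted p = 0.083). Tested against a 1.5-fold difference in place of no difference, limma called 0 of the 9 members, with 0 at an unadjusted p under 0.05, against 5.15% of all genes. These values set differences side by side and do not test one gene against another.

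Of the genes of ligand release, 1 passed. Of 5 measured, 0 were higher and 1 lower in ENCDC, against 8.39% of all genes called higher and 9.11% called lower. Counts at an unadjusted p under 0.05 were 0 higher and 2 lower, and the median log2 fold change of the 5 was -0.13. The 1 call became 2 when either YFP-positive array 3 or YFP-negative array 3 was left out. Disp1, the transporter that lets lipid-modified Hedgehog leave the producing cell, had log2 levels of 7.15, 7.16, 6.996 and 7.20 on YFP-positive arrays 1 to 4, against 8.11, 8.24 and 7.71 on YFP-negative arrays 1 to 3. The YFP-positive arrays were close together and below every YFP-negative array, and the log2 fold change was -0.90 ± 0.13 (SE, limma adjusted p = 0.00342). A second probe set of Disp1 gave -0.15 ± 0.11 (limma adjusted p = 0.434), so the probe sets disagree. Hhat, which attaches palmitate to the ligands, was at -0.10 ± 0.09 (SE, limma adjusted p = 0.50) and was named after its values were seen.

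Genes listed as co-receptors went both ways, more of them lower than higher. Of 7 measured, 4 were lower and 1 higher in ENCDC, against 9.11% of all genes called lower and 8.39% called higher. The median log2 fold change of the 7 was -0.42. The list takes in Gpc3, which competes with Ptch1 for ligand. The 5 calls became 2 without YFP-negative array 2 and 3 when YFP-negative array 1, YFP-positive array 2 or both YFP-positive arrays 3 and 4 were left out. Boc, a cell surface protein that presents ligand to Ptch1, had log2 levels of 5.93, 5.94, 6.15 and 6.27 on YFP-positive arrays 1 to 4, against 7.37, 7.24 and 7.04 on YFP-negative arrays 1 to 3. Its log2 fold change of -1.14 ± 0.12 (SE, limma adjusted p = 7.81e-04) kept its call in each of the 7 fits that leave out 1 array. Gas1, another co-receptor, named after its values were seen, had levels of 6.67 to 6.91 on the YFP-positive and 7.10 to 7.38 on the YFP-negative arrays and a log2 fold change of -0.42 ± 0.09 (SE, limma adjusted p = 0.0171), a call lost without YFP-negative array 2 (adjusted p = 0.0542), with both YFP-positive arrays 3 and 4 left out (adjusted p = 0.0599) and with the replicate number as a block (adjusted p = 0.0878). Cdon, the relative of Boc, did not pass: its log2 fold change was 0.31 ± 0.21 (SE, limma adjusted p = 0.399), and it too was named after its values were seen.

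The glypicans, heparan sulfate proteins of the cell surface, split. Gpc3, which in mouse competes with Ptch1 for ligand, had log2 levels of 8.36, 8.91, 9.37 and 9.46 on YFP-positive arrays 1 to 4, against 10.91, 10.89 and 10.04 on YFP-negative arrays 1 to 3, a log2 fold change of -1.58 ± 0.33 (SE, limma adjusted p = 0.0160). Gpc4 was lower as well, at -1.28 ± 0.28 (SE, limma adjusted p = 0.0202). Both lost the call when YFP-positive array 2, or either of YFP-negative arrays 1 and 2, was left out, with adjusted p-values of up to 0.0732 for Gpc3 and 0.0862 for Gpc4; that of Gpc3 was also lost with the replicate number as a block (adjusted p = 0.0788). Gpc6 was the co-receptor gene that was higher in ENCDC, with log2 levels of 8.54, 8.26, 8.28 and 8.24 on YFP-positive arrays 1 to 4, against 7.61, 7.74 and 7.23 on YFP-negative arrays 1 to 3. The groups were well apart, and its log2 fold change was 0.81 ± 0.14 (SE, limma adjusted p = 0.00721), a call lost once both YFP-positive arrays 3 and 4 were left out (adjusted p = 0.0529).

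Genes of the relay between Smo and the Gli factors mostly did not pass, which was also so for most genes on the array. Of 15 measured, 1 was higher and 0 lower, against 8.39% of all genes called higher and 9.11% called lower. Counts at an unadjusted p under 0.05 were 3 higher and 1 lower, and the median log2 fold change of the 15 was 0.05. The 1 call became 2 without YFP-negative array 3. Sufu, which holds Gli proteins in the cytoplasm, was at -0.03 ± 0.09 (SE, limma adjusted p = 0.887), and the cilium kinesin Kif7 at 0.05 ± 0.05 (SE, limma adjusted p = 0.574); both were named after their values were seen. Gsk3b, a kinase of Gli proteins and of many other substrates, was higher, with log2 levels of 9.50, 9.11, 9.13 and 9.42 on YFP-positive arrays 1 to 4, against 8.19, 8.33 and 8.54 on YFP-negative arrays 1 to 3. Its log2 fold change was 0.94 ± 0.13 (SE, limma adjusted p = 0.00308).

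Transport genes of the primary cilium, through which Smo and the Gli factors move, mostly did not pass, and again the same was so for most genes. Of 15 measured, 2 were higher and 0 lower, against 8.39% of all genes called higher and 9.11% called lower. Counts at an unadjusted p under 0.05 were 5 higher and 0 lower, and the median log2 fold change was 0.12. Kif3a, a subunit of the motor that builds the cilium, was at 0.90 ± 0.18 (SE, limma adjusted p = 0.0151), with log2 levels of 7.66, 7.56, 7.24 and 7.12 on YFP-positive arrays 1 to 4, against 6.74, 6.58 and 6.15 on YFP-negative arrays 1 to 3. The call of Kif3a was lost when either YFP-positive array 2 or YFP-negative array 2 was left out (adjusted p of up to 0.0522). Ttbk2, a kinase that starts cilium assembly, was at 0.60 ± 0.07 (SE, limma adjusted p = 0.00117), with levels of 7.23 to 7.44 on the YFP-positive and 6.68 to 6.75 on the YFP-negative arrays. Both genes also work in neurons outside the cilium.

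**Figure D4:**
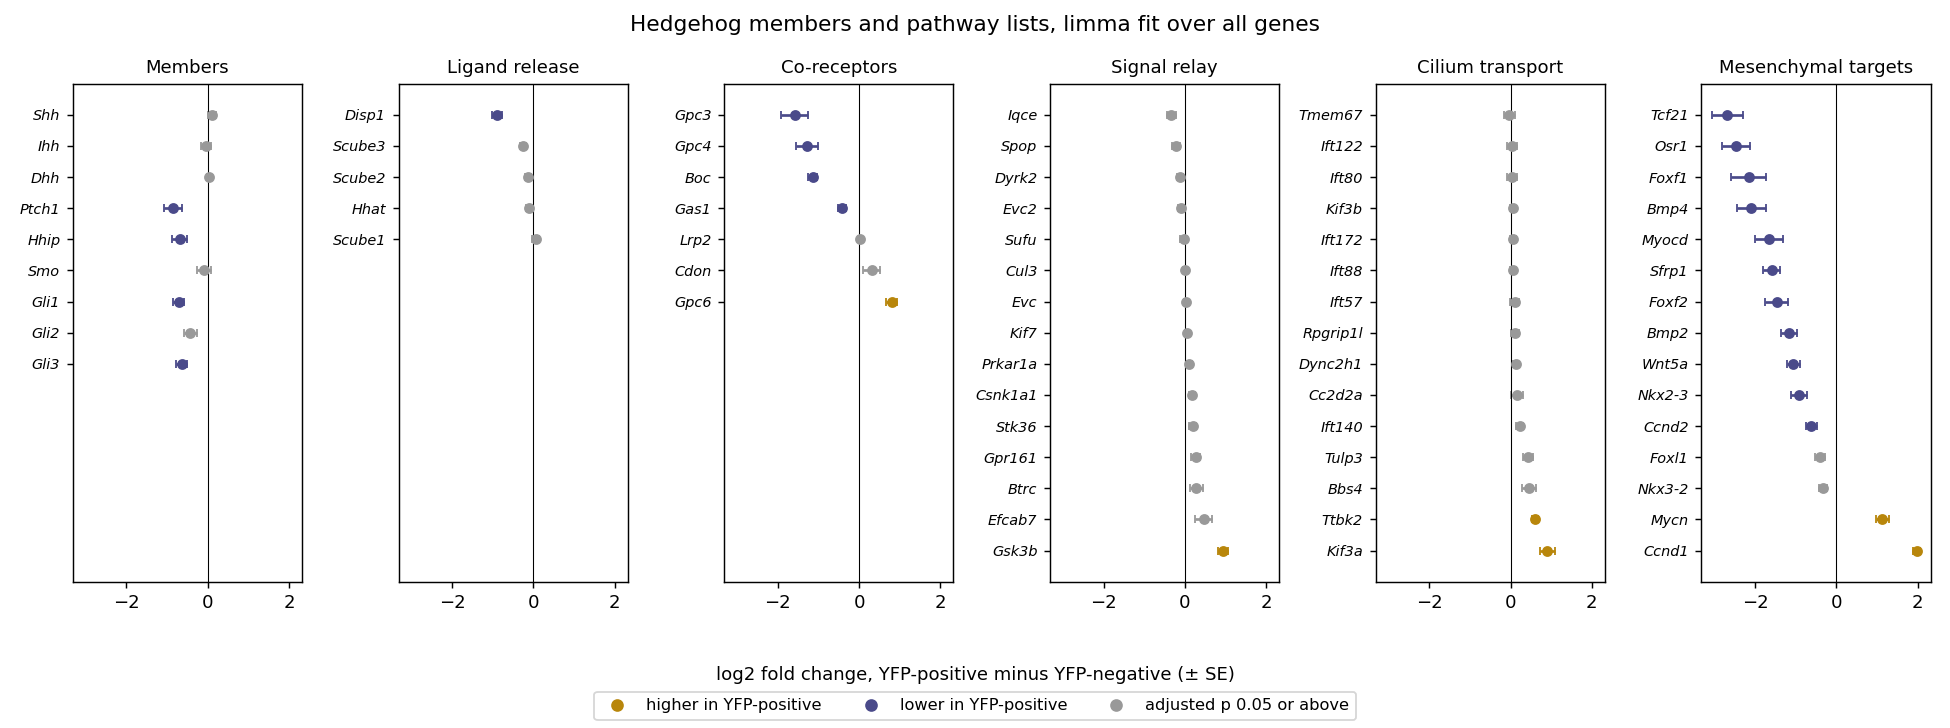
Log2 fold change, YFP-positive minus YFP-negative, with its SE for the 9 members and for 5 lists of other Hedgehog pathway genes; colour gives the limma call at an adjusted p of 0.05. The members and the relay and cilium lists lie near 0 beside the target list, which reaches -2.68 for Tcf21 and 1.98 for Ccnd1.

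Genes listed as Hedgehog targets, most but not all of them genes of the gut mesenchyme, had the largest differences. Of 15 measured, 11 were lower and 2 higher in ENCDC, against 9.11% of all genes called lower and 8.39% called higher, with a median log2 fold change of -1.16. Without YFP-negative array 2, 8 of the 15 passed in place of 13. Tcf21, a transcription factor of visceral mesenchyme, had log2 levels of 6.96, 7.86, 8.13 and 8.44 on YFP-positive arrays 1 to 4, against 10.81, 10.81 and 9.97 on YFP-negative arrays 1 to 3, a log2 fold change of -2.68 ± 0.38 (SE, limma adjusted p = 0.00315). Osr1, a zinc-finger factor of the same tissue, was at -2.46 ± 0.35 (SE, limma adjusted p = 0.00333). Like the markers of mesenchyme, these genes were higher on YFP-positive arrays 3 and 4 than on arrays 1 and 2.

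Foxf1, a forkhead factor that answers to epithelial Hedgehog in mouse gut, had log2 levels of 6.85, 7.53, 8.22 and 8.75 on YFP-positive arrays 1 to 4, against 10.04, 10.10 and 9.84 on YFP-negative arrays 1 to 3. Its log2 fold change was -2.16 ± 0.42 (SE, limma adjusted p = 0.0127), a second probe set gave -2.04 ± 0.35 (limma adjusted p = 0.0070), and the call was lost without YFP-negative array 1 or 2 (adjusted p of up to 0.0583). Bmp4, a growth factor made by the mesenchyme under the epithelium, was at -2.09 ± 0.35 (SE, limma adjusted p = 0.00689). The parts of cell type and of Hedgehog signalling in the differences of these genes were not tested.

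Ccnd1 and Mycn were the 2 genes of this list that were higher in ENCDC. Ccnd1, a cyclin of the G1 phase, had log2 levels of 10.23, 10.34, 10.36 and 10.26 on YFP-positive arrays 1 to 4, against 8.14, 8.46 and 8.37 on YFP-negative arrays 1 to 3. The groups lay far apart with little spread, and Ccnd1 was 3.93-fold higher in ENCDC (log2 fold change 1.98 ± 0.09 SE, limma adjusted p = 3.61e-05). Mycn, a growth-promoting transcription factor of neural cells, was at 1.13 ± 0.16 (SE, limma adjusted p = 0.00310), with levels of 6.80 to 7.26 on the YFP-positive and 5.55 to 6.08 on the YFP-negative arrays. Both genes answer to several other pathways. Ccnd2, a cyclin of the same family, named after its values were seen, was at -0.61 ± 0.14 (SE, limma adjusted p = 0.021). The call of Ccnd2 was lost in 5 of the 7 fits that leave out 1 array, all but those lacking YFP-positive array 4 and YFP-negative array 1 (adjusted p of up to 0.085), and after a repeated quantile normalization (adjusted p = 0.0669).

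Windows of 6 genes of the target list were in the RefSeq table. Of these, 2 held the Gli core CCACCCA or its reverse complement, against 9.3% of all windows. They were the windows of Mycn, which was higher in ENCDC, and of Nkx2-3, a homeobox gene of gut mesenchyme that was lower (log2 fold change -0.91 ± 0.20 SE, limma adjusted p = 0.0214). Relative to the gene start, the core began at 26 in Mycn, after the start, and at -143 in Nkx2-3. The matches describe letters only. The call of Nkx2-3, which was named after its values were seen, held in 2 of the 7 fits that leave out 1 array, those lacking array 3 of either population, with adjusted p-values of up to 0.0755. It was also lost with the replicate number as a block (adjusted p = 0.0819) and with both YFP-positive arrays 3 and 4 left out (adjusted p = 0.115). The core with 15 bases on each side is given 5′ to 3′ on the strand of the gene, in GRCm38.p6, with the core in capitals.
Mycn, chr12:12941789-12941825, minus strand: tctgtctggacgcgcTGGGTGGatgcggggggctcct
Nkx2-3, chr19:43612167-43612203, plus strand: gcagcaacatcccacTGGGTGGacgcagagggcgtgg
The full consensus was in neither window.

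Genes whose levels followed a member most closely over the 7 arrays were sought among the 2139 genes with an SD of at least 0.5. For Gli1 these were Il33, a cytokine gene of stromal cells, at a Pearson r of 0.997, the matrix enzyme gene Loxl1 at 0.996 and the pericyte gene Rgs5 at 0.995, and 268 genes had an r over 0.95. For Ptch1 they were Camk1d at 0.992, Tnfrsf11a at 0.989 and the collagen gene Col6a4 at 0.987, with 47 genes over 0.95. For Hhip they were Egln3 at 0.982, Hspa2 at 0.980 and Ccdc141 at 0.979, with 37 genes over 0.95. The arrays of each population share their group, so genes that are lower in ENCDC tend to correlate with these members for that reason alone.

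No gene reached 0.95 for the ligands. Ihh was closest to Muc2, the gene of the goblet cell mucin, at an r of 0.777, followed by Hyal5 at 0.701 and Cdhr5, a protein of the epithelial brush border, at 0.701. For Shh the closest were Zfp442 at 0.864, Snora20 at 0.700 and Slc44a1 at 0.646, and for Dhh Mir17 at 0.798, Mir18 at 0.788 and Chadl at 0.739. Because Shh and Dhh held 1 value on 4 and 5 of the 7 arrays, these correlations rest largely on the remaining 3 and 2 arrays. All are descriptions over 7 arrays with no test.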

How the data were processed

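RNA of 4 YFP-positive and 3 YFP-negative samples was measured on 1 microarray each. The deposited values are log2 levels per probe set. The submitters' processing notes name Affymetrix Expression Console and RMA, without versions. RMA scales arrays to a common distribution, which can compress differences. Of 35556 probe sets, 21789 were paired with 1 gene. For 999 genes with several, the probe set with the highest mean was used, giving 19938 genes. Array medians were 5.87 to 5.92 on the log2 scale, correlations over genes 0.913 to 0.951 between and at least 0.980 within groups. The number of arrays limits the precision.

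Groups were compared with lmFit and eBayes (limma 3.58.1, R 4.3.3; Python 3.11.15) with group as the only term and Benjamini-Hochberg adjustment over all genes. The fit was tested on simulated data. Members, lists and tests were chosen with earlier results of these data known. Named genes are the members, from each list at most 4 called genes, taken by size of change, plus at most 2 called in the minority direction, and the 3 genes most correlated with each of 6 members; the last search left out unnamed and predicted loci. Epcam, Sox10, Erbb3, Mbp, Egr2, Gfra3, Pdgfra and Fbln1, from the marker lists, and Nkx2-3 were named after their values were seen. The list genes Grk2, Prkaca and Arl13b were not analysed here. Alternatives were other eBayes options, centring, quantile normalization, a filter on low values, other uses of probe sets, array weights, a 1.5-fold threshold, the replicate number as a block and arrays left out. Promoter windows are from RefSeq.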

Additional observations from a re-analysis of the deposited data

Results flagged for a closer look

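Among the 9 members and the 14 other genes named from the lists by rule, the 4 YFP-positive arrays were searched for a single array set apart from the rest by its gap over the range (Dixon's test), which chance exceeds in about 1 group in 20. The Dhh level on YFP-positive array 4 was set apart, at 4.7643 against 4.7863 on each of the other YFP-positive arrays; those 3 are identical, so any difference gives a gap ratio of 1.0. The Gpc6 level on YFP-positive array 1 was set apart, at 8.5437 against 8.24 to 8.28 on the others (gap ratio 0.863). Gpc6 kept its call without that array.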

How the results depend on the processing

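The direction of Ptch1, Hhip, Gli1, Gli2, Gli3 and Shh did not change under any alternative run. Those of Ihh (0.0351 without YFP-positive array 2), Dhh (-0.0055 without YFP-negative array 1) and Smo (0.0248 and 0.0106, leaving out array 1 of the YFP-positive or of the YFP-negative group) turned, as did that of Sufu (0.005 with arrays centred, -0.0694 to 0.0417 leaving out 1 array), and none of these 4 genes passed. Over the fits that leave out 1 array, log2 fold changes ranged from -1.05 to -0.75 for Ptch1, -0.84 to -0.56 for Hhip, -0.86 to -0.64 for Gli1, -0.74 to -0.57 for Gli3, -0.15 to 0.0351 for Ihh, -0.0055 to 0.0331 for Dhh and -0.21 to 0.0248 for Smo. Lower members then numbered 0 to 3, calls in the lists 1 to 2 (ligand release), 2 to 5 (co-receptors), 1 to 2 (relay), 1 to 3 (cilium) and 8 to 12 (targets).

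Against a 1.5-fold difference none of Ptch1 (-0.86), Hhip (-0.69), Gli1 (-0.72) and Gli3 (-0.64) passed, lower members numbered 0, calls in the lists 0 (ligand release), 1 (co-receptors), 0 (relay), 0 (cilium) and 5 (targets), and 1027 genes passed, since that test asks for a larger difference. Without YFP-positive arrays 3 and 4, Hhip (-0.90) did not pass and co-receptor calls numbered 3. Array weights gave 2 ligand release calls, and a repeated quantile normalization 2 relay calls; the cause was not tested. With the replicate number as a block, Hhip (-0.74) and Gli1 (-0.77) did not pass, lower members numbered 2 and co-receptor calls 3. Arrays of the same number did not deviate together (correlations of 0.01, -0.09 and 0.04). With deviations taken from the means of 4 and 3 arrays, this check cannot exclude that the numbers pair the samples. The labels do not state a pairing, so the main fit did not use the numbers. Centring, other eBayes options, probe set averaging, the filter on low values and testing every probe set left the same 4 members called. The filter removed Shh and Dhh. Signal over background could not be judged, because the values carry no detection call.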
